A study of Danio rerio with 11 samples.

Results

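The transcriptome of phenotypically normal zebrafish embryos at about 25 hours after fertilisation was described from the 5 sibling embryos (replicates 2, 3, 4, 7 and 8) among 11 single-embryo RNA-seq libraries. The other 6 libraries came from mutant embryos (replicates 1, 3, 4, 5, 6 and 7). The mutants carry the genotype label rfx4 mutant and the siblings the label control. Both groups came from an incross of carriers of the rfx4 allele uw8013, were raised at 29 °C without treatment, and were sorted by appearance. A normal-looking embryo may therefore carry 1 or no copy of the mutant allele, and single embryos were not genotyped in the labels. The growth protocol names double zic2 heterozygous parents instead of rfx4 carriers, so the parental genotype is uncertain for mutants and siblings alike. Each library held the RNA of a whole embryo, so that every value averages over all its tissues, the yolk cell included.

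At this age the zebrafish body plan is laid out. The heart beats, the first skeletal muscle contracts, primitive red cells that carry embryonic globins enter the circulation, and the hatching gland stores the proteases that later open the egg envelope. The embryo lives on its yolk, and the yolk syncytial layer, a multinucleate sheet at the yolk surface, packages yolk lipid into lipoproteins and secretes plasma proteins before the liver does so. The brain is regionalised and many of its cells still divide, while the exocrine pancreas, the rods and cones and the lymphoid organs have yet to mature.

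The count tables covered 14473 genes, with 17133737 to 21104811 counts per sibling. Counts of rfx4 were 589, 706, 623, 605, 905 and 942 in mutants 1, 3, 4, 5, 6 and 7, against 1383, 1221, 857, 951 and 1172 in siblings 2, 3, 4, 7 and 8. Mutants 6 and 7 lay within the sibling range, so this transcript separates the groups only in part. No pair of siblings agreed within sampling noise, with a chi-square per degree of freedom of 9.43 to 69.2 over the 10 pairs. Sibling 3 stood apart from the other siblings for one set of genes described below, where the calls lost without it are named. The edgeR quasi-likelihood test of mutants over siblings called 0 of 12301 genes at an adjusted p under 0.05 (0.0%), with 843 genes (6.85%) at an unadjusted p under 0.05. DESeq2 called 44 genes on the same counts, 20 higher and 24 lower in mutants.

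Most genes were expressed. A gene was taken as detected when its level was at least 1 TPM (a share of all transcripts, scaled for gene length) in every sibling, and 11243 genes (77.7%) were. A further 2097 genes had a count in some sibling but a mean under 1 TPM, and 662 genes (4.57%) had 0 counts in all 5 siblings. A mean of at least 10 TPM was reached by 7703 genes, at least 100 TPM by 1383 genes and at least 1000 TPM by 173 genes. The 10 most abundant genes held 7.77% ± 0.25 of all TPM, the top 100 genes 36.9% ± 0.66 and the top 1000 genes 72.4% ± 0.71 (SD, n = 5). These shares differed little between embryos, with 36.0% to 37.7% for the top 100 genes.

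The most abundant transcripts encoded the translation machinery, keratins of the skin, lipoproteins of the yolk syncytial layer, cytoskeletal actins, embryonic globin and muscle actin. The translation elongation factor gene eef1a1l1 was first, with 12925, 13528, 12806, 12502 and 13391 TPM in siblings 2, 3, 4, 7 and 8. Its values lay close together, at 13030 ± 424 TPM (SD, n = 5). The type II keratin gene krt4 was second, with 10891, 12036, 15147, 11495 and 13584 TPM in the same embryos, highest in sibling 4. The type I keratin genes cyt1 and cyt1l followed at 9293 ± 1192 and 4899 ± 580 TPM. The apolipoprotein genes apoa1a, apoa1b and apoc1l, whose products carry lipid in lipoprotein particles, had 6639 ± 1377, 5375 ± 1218 and 5178 ± 1230 TPM.

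**Figure D1:**
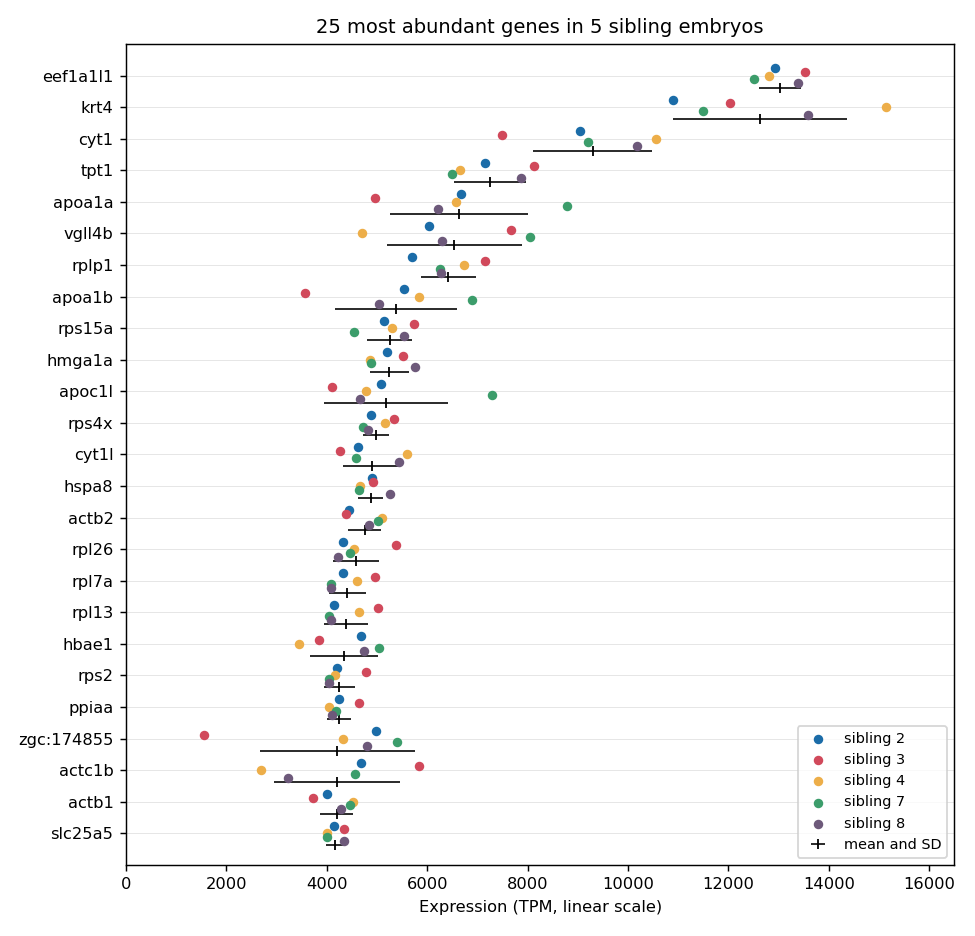
Expression in TPM (horizontal axis, linear) of the 25 genes of highest mean, 1 coloured point per sibling, with the mean and SD over the 5 siblings as a black bar under each row. The points of eef1a1l1 lie close together at 12502 to 13528 TPM, whereas zgc:174855 has 1 low point, 1553 TPM in sibling 3.

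Among the other genes of the top 25 were tpt1 (7255 ± 721 TPM), which encodes the translationally controlled tumour protein, and vgll4b (6541 ± 1347 TPM), which encodes a Vestigial-like cofactor of TEAD factors. The chromatin protein gene hmga1a had 5241 ± 388 TPM and the constitutive Hsp70 chaperone gene hspa8 had 4875 ± 246 TPM. The cytoplasmic actin genes actb2 and actb1 had 4755 ± 329 and 4198 ± 333 TPM, close to the muscle actin gene actc1b at 4198 ± 1256 TPM. The α-globin gene hbae1 had 4348 ± 677 TPM, the peptidylprolyl isomerase gene ppiaa 4245 ± 234 TPM and the mitochondrial ADP/ATP carrier gene slc25a5 4162 ± 170 TPM. The ribosomal protein genes rplp1, rps15a, rps4x, rpl26, rpl7a, rpl13 and rps2 filled 7 further places, between 4246 and 6423 TPM on average. The gene zgc:174855, which lies near the cathepsin gene ctsl1b, had 4212 ± 1536 TPM.

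Cytosolic ribosomal proteins took 22.0% ± 1.55 of all TPM (SD, n = 5) from 81 genes, and 59 of the 100 most abundant genes were of this class. In the test of spread between siblings described below, which called 3.58% of all genes tested, 0 of 80 ribosomal protein genes were called, a share near that of all genes. Their summed level was 245459 TPM in sibling 3 and 208765 to 225170 TPM in the other siblings. The 60 mitochondrial ribosomal protein genes had a median of 57.9 TPM, the 51 proteasome genes 144 TPM, the 52 splicing factor genes 197 TPM and the 58 translation initiation factor genes 165 TPM. The 83 nuclear genes of the respiratory chain and ATP synthase had a median of 140 TPM. All these medians lay above the median of all genes, 11.7 TPM.

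Lists of marker genes were set in order of their level. A list level was the mean of log2(TPM + 1) over its measured members in 1 embryo. The order depends on which members were chosen, so it does not rank the amounts of the tissues. Skeletal muscle (8.34 ± 0.16), the epidermis with its outer periderm (8.27 ± 0.17), proliferation (7.61 ± 0.06), the hatching gland (7.05 ± 0.31), neural progenitors (6.83 ± 0.10) and the plasma protein genes of the yolk syncytial layer and liver (6.63 ± 0.39) were highest (SD, n = 5). Muscle and epidermis did not differ beyond their spread. The brain region, neural crest, ear and retina lists lay between 4.00 and 4.77, and the 6 lists of germ cells or later-stage tissues at 1.37 or less.

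**Figure D2:**
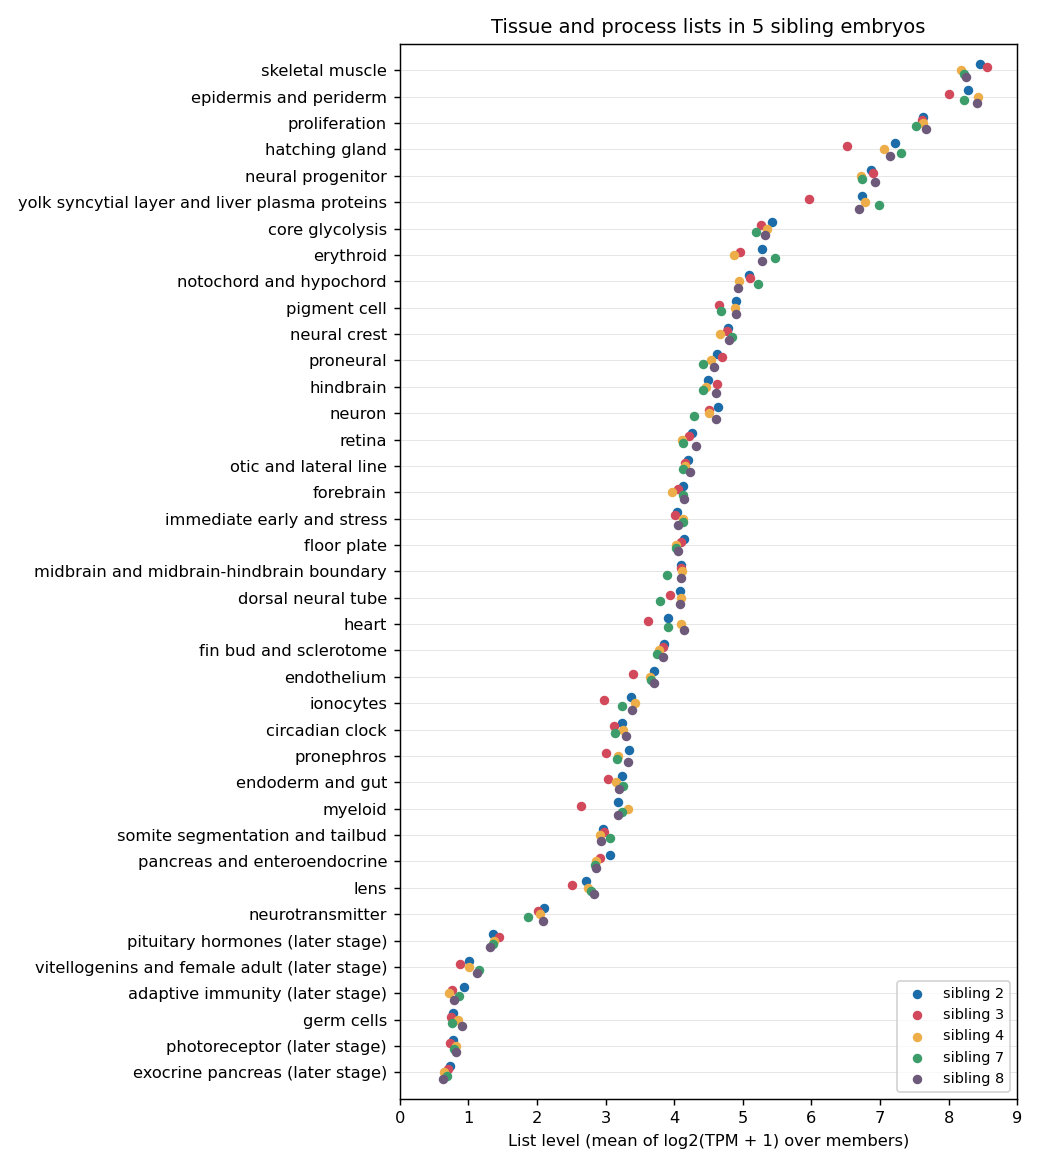
List level (horizontal axis, mean of log2(TPM + 1) over the measured members) for 39 lists of tissue and process genes, 1 coloured point per sibling, ordered by the mean. Sibling 3 is the lowest embryo for the yolk syncytial layer list at 5.96, the hatching gland list at 6.52 and the myeloid list at 2.64.

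Skeletal muscle genes held 2.53% ± 0.33 of all TPM, and all 29 measured members were detected in every sibling, with a median of 524 TPM. Behind actc1b came tpma, an α-tropomyosin gene, at 3201 ± 432 TPM and mylpfa, a fast myosin light chain gene, at 2819 ± 179 TPM. The creatine kinase gene ckmb had 2136 ± 167 TPM. The determination gene myf5 (6.84 TPM) was the lowest member, and the differentiation factor gene myog had 54.0 ± 20.2 TPM. Of 14 heart genes all were detected at far lower levels, with a median of 18.5 TPM. The cardiac myosin light chain genes cmlc1 (98.2 ± 12 TPM) and myl7 (81.6 ± 7.1 TPM) and the troponin gene tnnt2a (38.8 ± 3.7 TPM) led them. The notochord and hypochord list was led by the collagen genes col2a1a (420 ± 85 TPM) and col9a1b (328 ± 59 TPM) and by cmn, a notochord gene known in zebrafish as calymmin (191 ± 14 TPM).

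Epidermis and periderm genes held 3.46% ± 0.39 of all TPM, with a median of 232 TPM over 25 members. The yolk syncytial layer and liver list held 3.22% ± 0.73, so the order of these lists is within their spread, and it summed higher than epidermis in siblings 2 and 7. Beside krt4, cyt1 and cyt1l, the keratin genes krt5 and krt8 had 1414 ± 197 and 1187 ± 137 TPM. In the hatching gland list the hatching enzyme gene he1a (2970 ± 949 TPM) and the cathepsin gene ctsl1b (2536 ± 948 TPM) led, ahead of the hatching enzyme gene he1b (666 ± 172 TPM) and of xbp1, a transcription factor gene of secretory cells (366 ± 7.6 TPM). The ionocyte list had a median of 11.9 TPM, with the carbonic anhydrase gene cahz (66.1 ± 20.2 TPM), which red cells share, the proton pump gene atp6v1aa (63.5 ± 9.4 TPM) and the sodium pump gene atp1b1b (57.2 ± 11 TPM) at its top.

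Embryonic globin genes led the erythroid list, 4 of them above 1000 TPM. The α-globin genes hbae1 and hbae3 had 4348 and 1193 TPM on average, and the β-globin genes hbbe1.1 and hbbe3 had 3234 and 2304 TPM. The embryonic β-globin gene hbbe2 was far lower, at 64.3 ± 4.2 TPM, below the haem synthesis gene urod (106 ± 20 TPM). The larval and adult β-globin genes were at or near 0, with 0 counts of ba1 in every sibling and 0 to 3 counts of ba1l. A count of 0 allows up to 3 counts, which is 0.142 to 0.175 CPM, the share of counts scaled to a fixed library total, across the 5 libraries (counting error only). This floor used total counts, whereas the CPM values of genes given below used TMM library sizes. The myeloid list had a median of 5.82 TPM, with mfap4 (61.7 ± 17.8 TPM), a macrophage marker in zebrafish, lyz (38.9 ± 15.9 TPM), which encodes lysozyme, and cebpa (32.4 ± 4.6 TPM) first. All 14 endothelial genes were detected, led by fli1a (32.6 ± 2.1 TPM), cldn5b (25.8 ± 2.1 TPM) and etv2 (24 ± 2.2 TPM).

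Among the genes of the yolk syncytial layer and liver, the apolipoprotein genes apoa2 and apoeb followed apoa1a, apoa1b and apoc1l at 3869 ± 804 and 3297 ± 538 TPM, and the transferrin gene tfa had 1430 ± 585 TPM. The retinol carrier gene rbp4 had 1312 ± 507 TPM, and apobb.1, which encodes the apolipoprotein B core of large lipoproteins, 1099 ± 446 TPM. Not every liver gene was present. The thyroxine carrier gene ttr had 2 to 6 counts per sibling (0.33 TPM), fabp10a, the liver fatty acid binding protein gene used as a hepatocyte marker in zebrafish larvae, 0 to 1 counts, and shbg 1 to 5 counts. In the endoderm and gut list, fabp2, an intestinal fatty acid binding protein gene, stood at 1651 ± 275 TPM, and the next members, nkx6.1 (38.7 TPM) and gata5 (25.6 TPM), were far lower. The summed TPM of this list, most of it from fabp2, was 1459 in sibling 3 and 1824 to 2223 in the other siblings. It was 1118 in mutant 7 and 1686 to 2287 in the other mutants. Which tissue of the whole embryo expressed fabp2 was not tested. The early endoderm genes sox32 and sox17 had 0.07 and 0.23 TPM.

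Markers of dividing cells were high throughout. All 24 proliferation genes were detected, with a median of 200 TPM, and their list level ran only from 7.52 in sibling 7 to 7.68 in sibling 8. The replication clamp gene pcna had 1071 ± 51 TPM, and the ribonucleotide reductase genes rrm2 and rrm1 880 ± 32 and 408 ± 25 TPM. Neural progenitor genes had a median of 107 TPM. The bHLH inhibitor gene id1 led them at 929 ± 77 TPM, before the growth factor gene mdka (838 ± 78 TPM) and the radial glia gene fabp7a (371 ± 43 TPM). The proneural list was led by the Notch ligand genes dlb (97.6 ± 10 TPM) and dld (82.6 ± 7.8 TPM) and by neurod4 (85.3 ± 6.5 TPM). All 34 neuron genes were detected, with a median of 22.3 TPM, led by the tubulin genes tuba1l and tubb5 (421 and 419 TPM), whose close copies can exchange reads, and by the RNA-binding protein gene elavl3 (159 ± 21 TPM). Genes of transmitter synthesis and transport were low, with a median of 2.43 TPM. The muscle acetylcholine receptor gene chrna1 (52.3 ± 7.0 TPM) and the glycine transporter gene slc6a9 (29.5 ± 7.8 TPM) came first in that list, ahead of the GABA synthesis gene gad1b (7.05 ± 0.83 TPM).

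Regional genes of the nervous system were present at moderate levels. The forebrain list was led by dlx5a (52.3 TPM), dlx2a (40.8 TPM) and otpb (36.0 TPM), and the midbrain list by eng2b (48.5 TPM), pax7a (40.8 TPM) and otx1b (37.9 TPM). The hindbrain list was led by nr2f2 (121 TPM), hoxa3a (56.2 TPM) and hoxb3a (55.7 TPM). The floor plate list, the ventral midline of the neural tube, was led by ctgfa (46.2 TPM), sulf1 (44.7 TPM) and spon1b (31.1 TPM), and the dorsal neural tube list by msxc (77.6 TPM), zic2b (77.3 TPM) and zic1 (70.7 TPM). All 24 forebrain, 18 midbrain, 19 hindbrain and 16 floor plate genes were detected, as were 23 of 24 dorsal ones, the exception being rspo1, at 0.77 TPM. In the retina list ccnd1 (256 TPM), a cell cycle gene, fabp11a (214 TPM) and pax6a (67.6 TPM) led. The lens list was led by the crystallin genes cryba4 (122 ± 10 TPM), crybb1 (92.1 ± 25 TPM) and cryba1b (72.7 ± 15 TPM). The α-crystallin gene cryaba, by contrast, had 0 to 2 counts.

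The neural crest list was led by mycn (160 TPM), which is also a gene of dividing neural cells, tfap2a (91.8 TPM) and snai2 (48.7 TPM). In the pigment cell list purine and pteridine synthesis came first, with paics (659 ± 238 TPM), gch2 (230 ± 29 TPM) and pts (175 ± 11 TPM). The ear and lateral line list was led by cldnb (108 TPM), dlx3b (69.0 TPM) and the otolith matrix gene oc90 (65.8 TPM), and the pronephros list by atp1a1a.4 (74.1 TPM), cdh17 (70.6 TPM) and slc4a2a (19.7 TPM). The pancreas list was led by neurod (29.0 TPM), pax6b (22.6 TPM) and isl1 (20.1 TPM), all shared with neurons. The segmentation list was led by dld, her15.1 (75.2 TPM) and hes6 (69.0 TPM). The mesp genes mespaa, mespbb, mespab and mespba had 1.15, 0.81, 0.47 and 0.45 TPM. The fin bud list was led by msxc, sall4 (53.9 TPM) and dlx5a.

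Stress, clock and glycolysis genes filled the remaining lists. The chaperone genes hsp90aa1.1, which muscle also uses, and hspb1 had 656 ± 87 and 461 ± 36 TPM, the growth-arrest gene btg2 had 174.5 TPM, and the immediate early genes fosb and npas4a had 0.16 and 0.04 TPM. Of the clock genes cry2a (93.5 TPM), csnk1db (68.8 TPM) and tefa (54.8 TPM) were highest. Among the glycolysis genes gapdh had 708 ± 63 TPM and the aldolase gene aldoab 675 ± 64 TPM.

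Transcription factors were broadly present, at a median below that of all detected genes. Of 659 genes in 30 families, 570 (86.5%) were detected in every sibling, beside 77.7% of all genes. The detected ones had a median of 14.7 TPM, beside 19.1 TPM over all detected genes, and all 659 together held 1.58% of TPM. Only 20 exceeded 100 TPM, and foxq2 was the 1 factor gene with 0 counts. All 48 Hox genes, which pattern the body axis, were detected, with a median of 19.1 TPM and a range of 3.2 TPM for hoxa11a to 92.0 ± 12.3 TPM for hoxb9a. The Sox family had 20 of 24 members detected and was led by the neural genes sox11b (364 ± 38 TPM) and sox3 (311 ± 38 TPM). The Meis and Pbx genes, Hox cofactors, had the highest family median, 55.4 TPM over 12 members, with meis1 (190 ± 14 TPM) and pbx4 (139 ± 12 TPM) first. The E2f and Myc family (median 41.6 TPM) was led by mycn and e2f4 (68.2 TPM). The Tcf and Lef group (median 35.4 TPM) was matched by gene name. It thus also holds the bHLH genes tcf3b (86.2 TPM), tcf12 (51.3 TPM) and tcf3a (29.8 TPM). Of its Tcf and Lef genes proper, tcf7l1a (56.6 TPM) and tcf7l2 (37.4 TPM) were highest.

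In the bHLH family id1 was followed by id3 (165 ± 11 TPM), and in the Hairy and Hey family her9 (166 ± 7.5 TPM) and her6 (128 ± 11 TPM) led. The AP-1 and Atf genes atf4b1 and atf4b2 had 375 ± 30 and 245 ± 21 TPM. The Iroquois genes irx3b and irx3a (172 and 92.2 TPM), the POU genes pou3f3b and pou3f1 (122.6 and 98.1 TPM), the Ets genes etv5b and gabpa (102 and 63.9 TPM) and the Tfap2 genes tfap2a and tfap2c (91.8 and 45.4 TPM) led their families. Nuclear receptor genes had the second lowest family median, 4.79 TPM, with 47 of 67 detected, although nr2f5 and nr2f2 reached 198 and 121 TPM. The lowest median was that of the Stat and Irf family, 2.76 TPM, with 14 of 21 detected and irf2a (59.11 TPM) and stat3 (23.7 TPM) first. Of the Rfx genes rfx4 itself was highest at 29.7 ± 5.6 TPM, followed by rfx2 at 24.3 ± 1.9 TPM.

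The other families were led by pax6a and pax7a (67.6 and 40.8 TPM), by the forkhead genes foxp1a and foxm1 (44.9 and 43.2 TPM), and by the T-box genes tbx2b and ntla (33.7 and 32.9 TPM). They included the Gata genes gata5 and gata3 (25.6 and 22.9 TPM), the Klf genes klf6a and klf17 (54.5 and 46.8 TPM) and the Nkx genes nkx6.1 and nkx6.2 (38.7 and 28.6 TPM). The homeobox genes dlx3b and dlx5a (69.0 and 52.3 TPM), six1b and six3b (39.7 and 39.4 TPM), isl2a and lhx2b (23.7 and 20.4 TPM) and zeb2a and msxc (82.6 and 77.6 TPM) were first in theirs. So were the zinc finger genes zic2b and zic1 and sall4 and snai2, the Smad genes smad5 and smad1 (55.2 and 41.5 TPM), mef2ca and mef2d (50.1 and 49.3 TPM) and dmrt2a and dmrta2 (15.5 and 12.6 TPM).

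Genes without counts fell mostly into a few classes. Of the 662 genes with 0 counts in all siblings, 306 were microRNA genes (of 336 in the table), 124 olfactory or taste receptor genes (of 176), 15 nitr genes, a family of immune-type receptors (of 36), and 10 crystallin genes (of 53). Together these 4 classes made up 68.7% of the genes without counts, and 207 genes lay outside them. Mature microRNAs are too short to be captured in a library of this kind, so a count of 0 says little about the microRNA itself. The highest microRNA gene, mir144, had 14.9 ± 6.3 TPM from only 5 to 11 counts per sibling. Not 1 olfactory or taste receptor gene reached 1 TPM in every sibling. Of the 662 genes, 143 had a count in some mutant, and 6 had 10 counts or more in 1 of them. The highest of these were hsd11b1la, with 169 counts in mutant 4 and 0 in the other mutants and in all siblings, and serpina7, with 66 counts in mutant 3 and 0 in all other embryos.

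The later-stage lists lay near the floor. The photoreceptor list had a median of 0.44 TPM, with 4 of 27 members detected and 0 counts of opn1mw4, a cone opsin gene, and guca1b. Its highest member was rgra (19.5 TPM), followed by rlbp1a (2.82 TPM) and rpe65a (2.57 TPM). The exocrine pancreas list had a median of 0.18 TPM. Its transcription factor gene ptf1a was at 8.15 ± 2.4 TPM and the elastase gene ela2 at 2.45 ± 1.1 TPM, whereas the chymotrypsinogen gene ctrb1 had 0 counts. In the adaptive immunity list cd8a and mhc2dab had 0 counts, and b2ml (11.3 TPM), b2m (6.15 TPM) and ikzf1 (3.87 TPM) were highest. The pituitary hormone gene smtlb and the vitellogenin gene vtg6 had 0 counts. In their lists the transcription factor genes eya1 (50.8 TPM), pitx3 (24.9 TPM) and sox9a (27.5 TPM), which other tissues use too, and the steroid enzyme gene hsd3b1 (19.9 ± 8.6 TPM) led, with pomcb at 4.04 TPM and foxl2 at 2.94 TPM. The germ cell list had a median of 0.65 TPM, with nanos3 (3.2 ± 1.2 TPM), gra (2.27 TPM) and zp3 (2.17 TPM) first and vasa at 2.16 ± 0.4 TPM.

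Differences between embryos were then measured. Each gene's spread over the 5 siblings was set against that of genes of like abundance with the goodness-of-fit test of edgeR, and 423 of 11801 genes tested (3.58%) varied more than this trend at an adjusted p under 0.05. The common biological coefficient of variation (BCV), which is the spread beyond counting error, was 0.143. On simulated counts the test recovered 1, 25, 49 and 50 of 50 genes set 1.5, 2, 3 and 4 times higher in 1 sibling, so most differences of 1.5 times in 1 embryo would be missed. Without sibling 3 the BCV was 0.110 and 239 of 11853 genes (2.02%) were called, of which 175 were among the 423. In the 6 mutants 516 of 11754 genes (4.39%) were called, and the BCV on the 11652 genes tested in both groups was 0.162 in mutants and 0.143 in siblings. Of the 416 sibling calls tested in the mutants, 214 (51.4%) were called there as well, which is 41.9% of the 511 mutant calls tested in siblings. Without sibling 3 the share of sibling calls called in mutants was 48.5%.

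**Figure D3:**
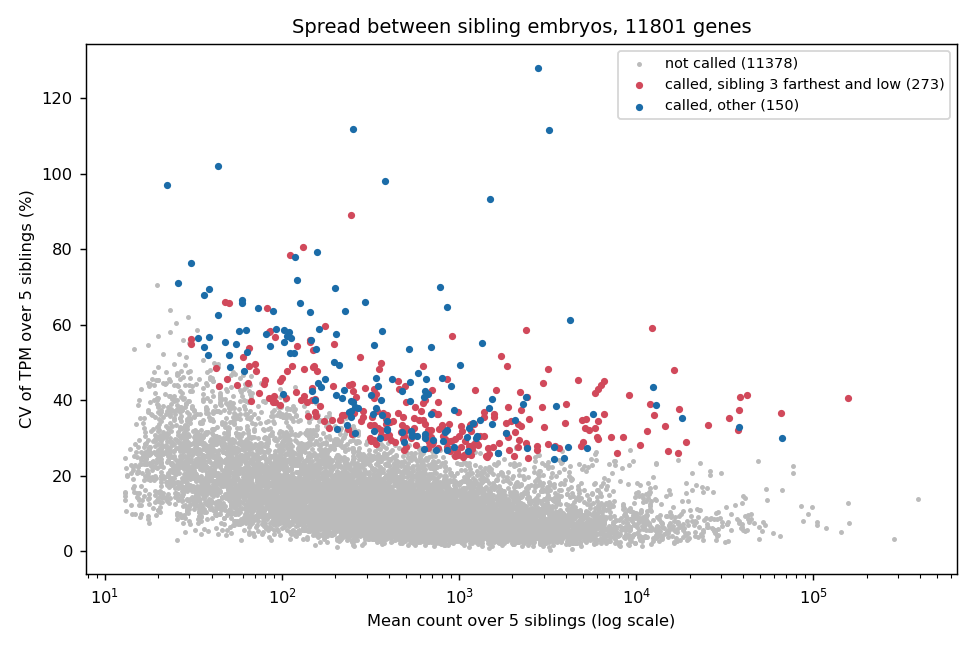
Coefficient of variation of TPM over the 5 siblings in percent (vertical axis) against the mean count (horizontal axis, log scale) for the 11801 genes tested. Grey points were not called, red points were called with sibling 3 farthest from the others and low (273 genes), and blue points are the other 150 called genes.

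In 273 of the 423 called genes (64.5%) sibling 3 was the embryo farthest from the others and was low, beside 19.2% of all tested genes. Of the 273 genes, 40 were still called without sibling 3. In the 273 its level was at a median of 0.418 times the median of the other 4 siblings. In the yolk syncytial layer and liver list 17 of 26 tested members were called (65.4%, beside 3.58% of all genes), and sibling 3 was lowest in all 26, beside 27.7% of all tested genes. Its level was 5.80 in mutant 7 and 6.51 to 6.74 in the other mutants, against 5.96 in sibling 3 and 6.70 to 6.99 in the other siblings. Without sibling 3, 9 of the 26 were called (2.02% of all genes), and without sibling 7, the embryo with the highest level, 13 (3.07% of all genes). The gene lists counted here and below were chosen with earlier results of these data known. Their counts describe the genes and support nothing. In a whole embryo fewer cells of a type and less RNA per cell cannot be told apart. The library of sibling 3 was also the deepest of the 5, and the part of depth in these differences was not tested.

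Complement genes encode a plasma cascade of innate immunity. Of 14 tested, 11 were called (78.6%, beside 3.58% of all genes), and sibling 3 was lowest in all 14 (27.7% of all genes). These counts too only describe the genes, as c3a, cfh and c9 are themselves among the 25 most variable genes. The central component gene c3a had 604, 890, 695, 667, 911 and 155 CPM in mutants 1, 3, 4, 5, 6 and 7, against 1015, 238, 914, 1488 and 884 CPM in siblings 2, 3, 4, 7 and 8 (adjusted p among siblings = 2.96e-14). Mutant 7 and sibling 3 lay below all other embryos. The complement regulator gene cfh had 13.6 CPM in mutant 7 and 72.6 to 96.6 CPM in the other mutants, against 15.9 CPM in sibling 3 and 113 to 153 CPM in the other siblings (adjusted p among siblings = 2.95e-26). The membrane attack gene c9 had 16 CPM in mutant 7 and 60.2 to 90.4 CPM in the other mutants, against 25.7 CPM in sibling 3 and 80.3 to 167 CPM in the other siblings. Without sibling 3, 4 of the 14 complement genes were called (2.02% of all genes), c9 among them (adjusted p = 4.38e-05), and cfh was not (adjusted p = 0.933).

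Coagulation genes, a list drawn up after the values were seen, had 12 of 19 tested members called with all 5 siblings (63.2%, beside 3.58% of all genes) and 3 without sibling 3 (15.8%, beside 2.02%). The cofactor gene f5 had 16 CPM in mutant 7 and 36.2 to 49.0 CPM in the other mutants, against 12.6 CPM in sibling 3 and 40.7 to 64.8 CPM in the other siblings. The plasminogen gene plg had 50.7 CPM in mutant 7 and 127 to 157 CPM in the other mutants, against 56.4 CPM in sibling 3 and 153 to 298 CPM in the other siblings. The prothrombin gene f2 had 54.4 CPM in sibling 3 and 141 to 173 CPM in the other siblings. Some lipid genes were also low in sibling 3. Of 15 apolipoprotein genes tested, 5 were called (33.3%, beside 3.58% of all genes) and 4 without sibling 3 (26.7%, beside 2.02%). Sibling 3 was lowest in 12 of the 15, beside 27.7% of all tested genes. The values of apobb.1 were 2346 CPM in mutant 7 and 6541 to 9572 CPM in the other mutants, against 2614 CPM in sibling 3 and 9359 to 11160 CPM in the other siblings. The gene mtp, which encodes the transfer protein that loads lipid onto apolipoprotein B, had 17.9 CPM in sibling 3 and 63.2 to 78.7 CPM in the other siblings. The gene dgat2, for an enzyme of triglyceride synthesis, had 10.5 CPM in sibling 3 and 42.0 to 50.2 CPM in the other siblings. The pyruvate carboxylase gene pcxb had 83.4 CPM in mutant 7 and 265 to 492 CPM in the other mutants, against 74.3 CPM in sibling 3 and 403 to 459 CPM in the other siblings. The most abundant apolipoprotein genes, apoa1a, apoa1b and apoc1l, were not called, with adjusted p of 0.568, 0.269 and 0.285 in the spread test. The values of apoa1a were 4955 TPM in sibling 3 and 6212 to 8774 TPM in the other siblings. Without sibling 3, plg was still called (adjusted p = 0.000113), and f5, f2, apobb.1, mtp, dgat2 and pcxb were not, with adjusted p of 0.171 for f5 and 1.00 for the other 5.

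**Figure D4:**
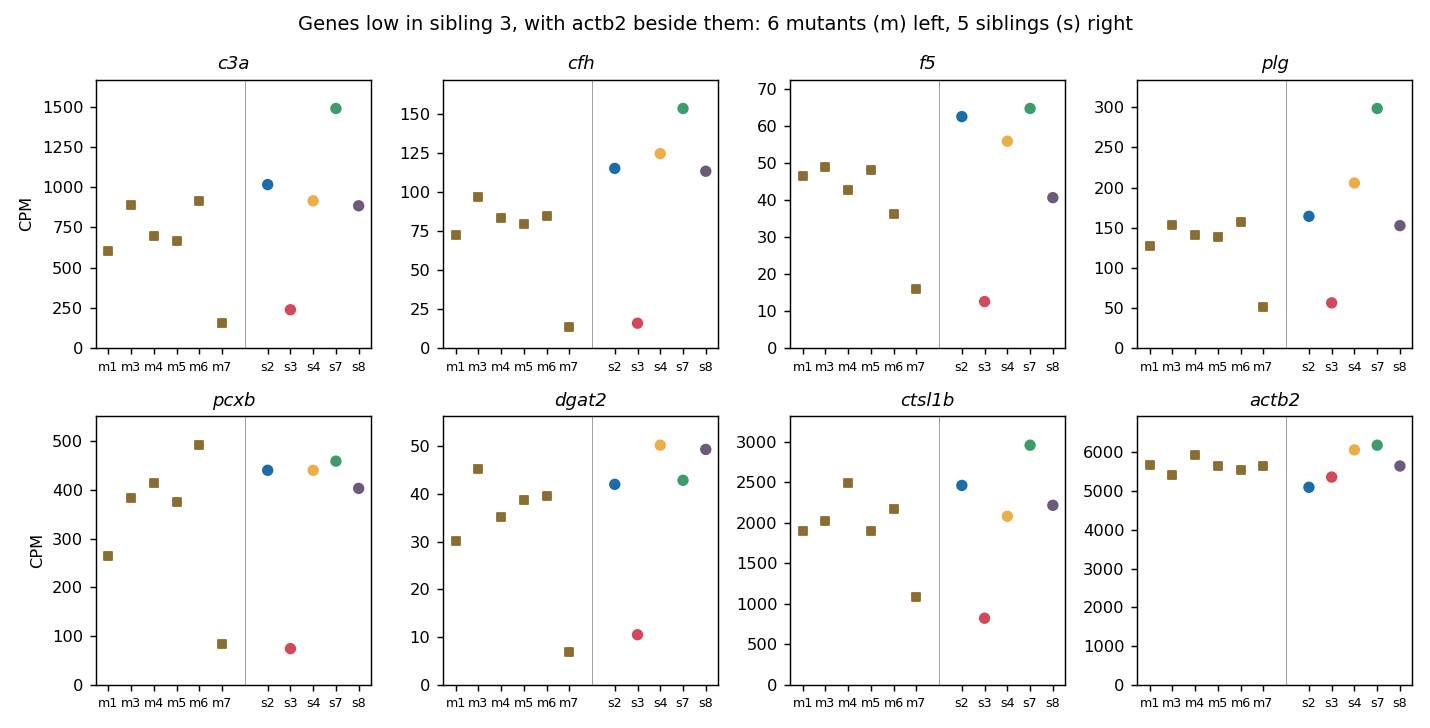
CPM (vertical axes, from 0) in each of the 6 mutants (brown squares, left) and 5 siblings (coloured points, right) for 7 genes that were low in sibling 3 and for actb2. Sibling 3 and mutant 7 are the lowest embryos of their groups in these 7 genes, and actb2 lies between 5101 and 6188 CPM in all 11 embryos.

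The match between sibling 3 and mutant 7 ran through the set. Of the 273 genes, mutant 7 was the lowest of the 6 mutants in 242 (88.6%), beside 23.0% of all tested genes, at a median of 0.487 times the median of the other mutants. The genes were chosen on the siblings alone, so the mutant values took no part in the choice of genes. Mutant 7 itself was singled out after the values were seen. As genes of such a set can move together, the count describes this embryo and is not a number of independent matches. Mutant 7 had the lowest level of the mutants in 17 of the 39 lists, sibling 3 the lowest of the siblings in 16, and 13 lists were shared. The edgeR test of mutants over siblings without both embryos again called 0 genes (1015 at an unadjusted p under 0.05). Ribosomal protein genes summed to 253542 TPM in mutant 7 and 215945 to 229488 TPM in the other mutants, against the 245459 TPM of sibling 3. As TPM values are shares of a library, the part of that difference in the lower values of other genes was not tested. Its part in the CPM values, which used TMM library sizes, was not tested either.

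Sibling 3 was also low in some hatching gland, white cell and factor genes. It was lowest in 5 of 9 hatching gland and 10 of 15 myeloid genes tested, beside 27.7% of all genes. Of the 9 hatching gland genes 4 were called (3.58% of all genes), and 0 without sibling 3, a count near the 2.02% of all genes called then. Of the 15 myeloid genes 5 were called, and 3 without sibling 3. In the mutants 0 of the 9 and 1 of the 15 were called, near the 4.39% of all genes. The cathepsin gene ctsl1b had 822 CPM in sibling 3 and 2082 to 2960 CPM in the other siblings, and he1a had 956 CPM and 2195 to 2732 CPM in the same embryos. The neutrophil peroxidase gene mpx had 3.18 CPM in sibling 3 and 5.92 to 18 CPM in the other siblings, and lyz 8.07 CPM and 10.6 to 22.8 CPM. The liver and yolk syncytial layer factor gene creb3l3a had 3.61 CPM in sibling 3 and 13.5 to 17.5 CPM in the other siblings. Without sibling 3, mpx and lyz were still called (adjusted p = 0.000258 and 0.0349), and creb3l3a was not (adjusted p = 1.00). In the other direction 11 called genes (2.60% of the 423, beside 17.6% of all tested genes) were farthest in sibling 3 and high. One of them, smtnl1, a smoothelin-like gene, had 101 CPM in sibling 3 and 35.7 to 47.6 CPM in the other siblings, and was not called without sibling 3 (adjusted p = 1.00). Muscle actin was likewise highest there, at 5842 TPM of actc1b, against 2688 TPM in sibling 4, and the muscle list level was 8.57 in sibling 3 and 8.18 to 8.45 in the other siblings.

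Sibling 4 differed in other genes. It was farthest and high in 22 called genes (5.20% of the 423, beside 8.13% of all tested genes). Among them were genes known to be induced in the response to DNA damage and other stress. The cell cycle inhibitor gene cdkn1a had 43.6, 16.7, 12.9, 28.6, 176 and 19.2 CPM in mutants 1, 3, 4, 5, 6 and 7, against 13.4, 14.1, 35.9, 16 and 11.9 CPM in siblings 2, 3, 4, 7 and 8 (adjusted p among siblings = 7.39e-06). Sibling 4 was the highest sibling, and mutants 6, 1 and 5 were the highest mutants. The ubiquitin ligase gene mdm2 had 132, 85.3, 52.9, 139, 415 and 57.0 CPM in the mutants, against 68.8, 54.0, 134, 76.0 and 73.4 CPM in the siblings in the same order. The cyclin gene ccng1 had 1201 CPM in sibling 4 and 486 to 600 CPM in the other siblings, and phlda3 had 22.6 CPM and 7.45 to 9.36 CPM.

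Of 22 tested genes in a list of DNA damage and growth arrest genes 6 were called among the siblings (27.3%, beside 3.58% of all genes), and 0 without sibling 4 (2.81% of all genes). They were cdkn1a, mdm2, ccng1, phlda3, sesn3 and zgc:136826. The list was drawn up after these genes were seen among the calls, so its count describes them and supports nothing. In the mutants 9 of 21 were called (4.39% of all genes). In sibling 4 some genes of differentiating muscle and red cells were the lowest of the siblings. Of 29 skeletal muscle genes tested only 2 were called among siblings (6.90%, beside 3.58% of all genes). The muscle list level was 8.18 in sibling 4 and 8.23 to 8.57 in the other siblings. The muscle factor gene myog had 23.9 CPM in sibling 4 and 40.7 to 75.9 CPM in the other siblings, and mybphb, a myosin-binding protein gene, 159 CPM and 212 to 437 CPM. The red cell factor gene gata1a had 8.29 CPM in mutant 6 and 16.7 to 34.8 CPM in the other mutants, against 10.9 CPM in sibling 4 and 16.4 to 26.4 CPM in the other siblings. The red cell anion exchanger gene slc4a1a had 58.4 CPM in mutant 6 and 116 to 272 CPM in the other mutants, against 88.6 CPM in sibling 4 and 99.4 to 161 CPM in the other siblings. Of 18 erythroid genes tested 14 were called among mutants (4.39% of all genes) and 4 among siblings (3.58%). Without sibling 3 the count was 7 (2.02% of all genes), and without sibling 4 it was 1, near the 2.81% of all genes.

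**Figure D5:**
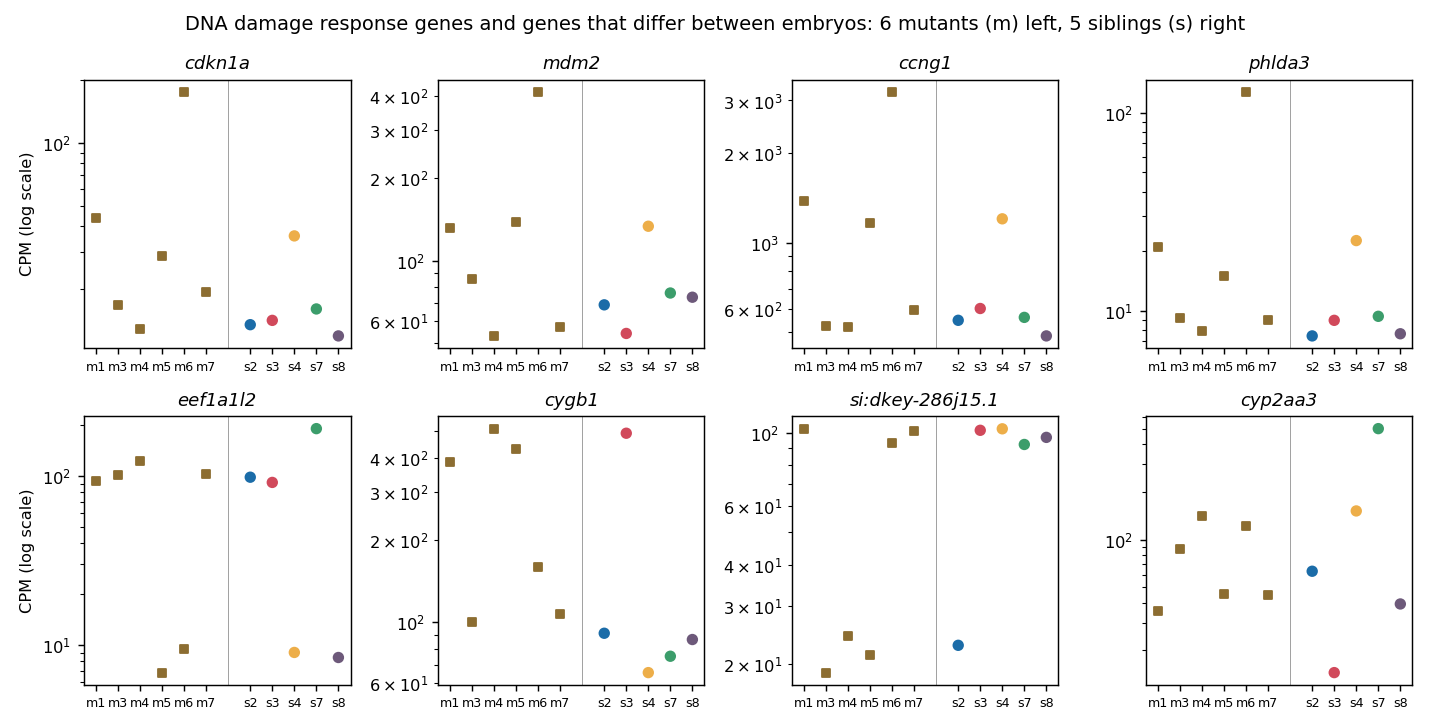
CPM (vertical axes, log scale) in each of the 6 mutants (brown squares, left) and 5 siblings (coloured points, right) for 4 DNA damage response genes (upper row) and 4 of the most variable genes (lower row). Mutants 6, 1 and 5 and sibling 4 are the highest embryos in ccng1 and phlda3, and eef1a1l2 has a low level of 6.86 to 9.48 CPM in mutants 5 and 6 and siblings 4 and 8.

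Sibling 7 was farthest and high in 46 called genes (10.9% of the 423, beside 7.97% of all tested genes). Among tested genes with a mean count of at least 50, the cytochrome P450 gene cyp2aa3 had the largest spread relative to the trend. It had 35.5, 87.8, 141, 45.5, 122 and 44.5 CPM in mutants 1, 3, 4, 5, 6 and 7, against 63.3, 14.5, 152, 504 and 39.3 CPM in siblings 2, 3, 4, 7 and 8. This was a 34.8-fold range among siblings (adjusted p = 8.78e-86 in the spread test). Of the 10 genes of its cluster 8 were called with all siblings (3.58% of all genes), 6 without sibling 3 (2.02%) and 8 without sibling 7 (3.07%). The cluster is given because of cyp2aa3, which is among the 10, so these counts describe its genes and support nothing. Not all of them moved with cyp2aa3. The values of cyp2aa3v1 were lowest in sibling 7, with 73.1, 40.8, 22.2, 15.3 and 78.3 CPM in siblings 2, 3, 4, 7 and 8. Reads shared between these similar genes can be split unevenly, which leaves their single values uncertain. Sibling 7 also had the highest rbp4 (1151 CPM, and 366 to 750 CPM in the other siblings), paics (1068 CPM, and 340 to 700 CPM) and her1, a gene of the segmentation clock (7.14 CPM, and 1.71 to 2.66 CPM). Of these, paics is not among the 46 genes, as its farthest embryo was sibling 3, which was low. In the mutants her1 lay between 3.49 and 10.7 CPM, so that the value of sibling 7 was within their range. The immediate early gene ier5 was at 39.1 CPM in sibling 7 and at 135 to 157 CPM in the other siblings, and at 132 to 152 CPM in the 6 mutants.

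A few of the most variable genes fell on separate levels. The elongation factor gene eef1a1l2 had 93.5, 101, 122, 6.86, 9.48 and 103 CPM in mutants 1, 3, 4, 5, 6 and 7, against 98.2, 91.4, 9.03, 190 and 8.43 CPM in siblings 2, 3, 4, 7 and 8. No embryo lay between 9.48 and 91.4 CPM. The gene cygb1, which encodes the globin cytoglobin, had 387, 101, 511, 431, 159 and 107 CPM in the mutants, against 91.3, 491, 65.6, 75.2 and 86.6 CPM in the siblings in the same order. Mutants 1, 4 and 5 and, among siblings, sibling 3 alone formed the upper level, and without sibling 3 cygb1 was not called among siblings (adjusted p = 0.874). The gene si:dkey-286j15.1 had 103, 18.9, 24.4, 21.3, 93.4 and 101 CPM in the mutants, against 22.8, 102, 103, 92.2 and 96.8 CPM in the siblings. Here mutants 3, 4 and 5 and, among siblings, sibling 2 alone formed the lower level, and the call among siblings was lost without sibling 2. With all embryos these 3 genes were called in both groups.

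Of the 25 most variable genes with a mean count of at least 50, 12 lost their call among siblings when their farthest embryo was left out. In the mutants 20 of the 25 were also called, beside 4.39% of all genes tested there. Beyond those above they included zgc:174259 and zgc:174260, with 1.23 and 0.57 CPM in sibling 3, 2.71 and 1.88 CPM in sibling 7 and 9.84 CPM or more in the other siblings. The ferroxidase gene cp had 13.8 CPM in sibling 3 and 97.1 CPM in sibling 7. The genes cyp2aa7, cyp2aa9, btr22, dhrs13l1 and plbd1 varied 4.86- to 8.84-fold among siblings and were called in the mutants as well. Those not called in the mutants were si:zfos-1011f11.1, which was low in sibling 7 (1.88 CPM, and 19.8 to 34.3 CPM in the other siblings), and zgc:173443, zgc:174237, si:ch211-251f6.6 and zgc:123103, which were high in sibling 7. The last 4 had 58.5, 42.1, 98.0 and 489 CPM there.

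There were 7 genes with 0 counts in some sibling and at least 100 in another, a contrast that this choice of genes sets. The gene sc:d0220 had 0, 261, 0, 197, 294 and 125 counts in mutants 1, 3, 4, 5, 6 and 7, against 0, 0, 197, 0 and 197 counts in siblings 2, 3, 4, 7 and 8. Embryos of each group thus had either no count or over 100. The other 6 were graded or high in a single sibling. The gene zgc:174689 had 214, 0, 744, 0 and 95 counts in the siblings, and cmya5, a gene of striated muscle, had 0, 43, 256, 163 and 9. The gene fam173a had 101 counts in sibling 7 and 0 or 1 in the other siblings, and 0 to 2 counts in the mutants. The remaining 3 were zgc:153847 (0 to 197 counts among siblings), LOC563738 (0 to 105) and LOC100149258 (0 to 173).

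Some called genes lay side by side. In the gene order of the assembly GRCz12tu, 65 of 406 placed called genes (16.01%) lay next to another called gene, beside 6.41% of the other tested genes. There were 7 runs of 3 or more called genes, and 2 of them were called in full without sibling 3. They comprised 8 cyp2aa genes in 2 runs on chromosome 23, the cathepsin genes with ctsl1b and zgc:174855 on chromosome 12, the complement regulator genes cfhl4, cfh, cfhl1 and cfhl2 on chromosome 22, and zgc:174237 with 3 neighbours on chromosome 10. The other 2 were serpina1l, serpina1 and flrt2 on chromosome 20 and s100v2, thbs3b and mtx1b on chromosome 19. The 2 that stayed whole without sibling 3 were the run on chromosome 10 and that of cyp2aa2, cyp2aa3 and cyp2aa3v1. In the chromosome 10 run, however, zgc:174237, si:ch211-251f6.6 and zgc:173443 were high in sibling 7 (42.1, 98.0 and 58.5 CPM). The runs were not counted without sibling 7. Without sibling 3, none of the 5 genes of the chromosome 12 run and only cfhl4 of the chromosome 22 run were called. Several of these runs hold similar copies that can exchange reads.

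Of 602 transcription factor genes tested, 13 (2.16%) were called, beside 3.58% of all genes tested. Among them, sibling 3 was low in creb3l3a, gata4, stat5.1, stat6 and tcf3a, sibling 4 was low in gata1a, myog, mafa and tbx24, and sibling 7 was high in her1, mafbb and nr0b2a. Without sibling 3 none of the 5 named genes low in it were called. None of the 48 Hox genes and none of the 21 Sox genes tested were called, counts near the share of all genes.

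Common reference genes were again a list drawn up after the data were seen. Of 15 tested 0 were called, a count near the 3.58% of all genes. For some of them, the coefficient of variation of TPM over the 5 siblings was 1.65% for tmem50a, 2.73% for mob4, 3.25% for eef1a1l1, 4.60% for tbp, 5.09% for hprt1, 6.93% for actb2, 8.96% for gapdh and 9.84% for rpl13. The 5 genes with the smallest spread for their abundance, si:dkey-235k4.1, erc1a, ppm1lb, ankrd22 and si:dkey-239i20.4, had estimates at the lower bound of the method, so their order means little.

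The mutant and sibling list levels were set side by side, with no test of a list. Mutant minus sibling differences of the mean list level ran from −0.24 for the floor plate list to 0.21 for the somite segmentation and tailbud list, with a median of 0.02 over the 39 lists. In 9 lists the difference exceeded the SD of both groups. The floor plate level was 3.82 ± 0.17 in mutants and 4.07 ± 0.05 in siblings (SD, n = 6 and 5). Mutant 6 had 4.143, above the 4.021 to 4.138 of the siblings, and the other mutants had 3.650 to 3.887. In the edgeR quasi-likelihood test 9 of the 16 floor plate genes had an unadjusted p under 0.05, beside 6.85% of all genes. At an adjusted p under 0.05 there were 0. The somite segmentation and tailbud level was 3.18 ± 0.14 in mutants and 2.97 ± 0.06 in siblings, with 4 of 34 genes at an unadjusted p under 0.05. For the yolk syncytial layer list the level was 6.46 ± 0.34 in mutants and 6.63 ± 0.39 in siblings (SD, n = 6 and 5), so that the spread within each group exceeded the difference between them. The erythroid level was 5.17 ± 0.46 in mutants and 5.17 ± 0.25 in siblings.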

How the data were processed

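Per the labels' protocols, libraries of single-embryo RNA were made with a TruSeq RNA v2 kit. Strand is not marked by it, so reads of overlapping or antisense genes cannot be told apart. The authors deposited estimated counts, given as whole numbers, and TPM values for the same 14473 genes. The build Zv9 and the tools RSEM 1.2.18, Bowtie 1.1.1 and CASAVA 1.8.2 are listed in the submitters' processing notes; their roles and the annotation are not given in the sources used here. RSEM divides reads between similar transcripts, which leaves close copies uncertain. All 11 embryo columns were matched to samples by title.

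Levels and list levels used the deposited TPM, with a pseudocount of 1 for log2 values. Values across embryos used CPM with TMM library sizes. Spread was tested on the counts of the 5 siblings with edgeR 4.0.16 in R 4.3.3 (filterByExpr, trended dispersion, goodness of fit with 4 degrees of freedom, Benjamini-Hochberg adjustment at 0.05), and mutants were compared with siblings by the edgeR quasi-likelihood test on all 11 embryos, with DESeq2 1.42.0 as an alternative. The spread test was checked on simulated counts, with 5 false spread calls among 11801 genes. Unchanged genes were simulated at the trended dispersion itself, and changes were increases only. The rates of false and missed calls in the real data can therefore differ. Each library is a separate embryo, so the spread is biological as well as technical.

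Named genes were the 25 highest by mean TPM, the top 3 members and the members without counts of each list, the top 2 of each factor family, the 25 largest and 5 smallest spreads relative to the trend at a mean count of at least 50, and genes with 0 counts in 1 sibling and at least 100 in another. Genes named beside these were chosen after their values were seen. The members and lists were chosen with earlier results of these data known. Gene names and order came from a table of the assembly GRCz12tu. Alternatives covered normalisation, filters, thresholds, the pseudocount, the replicate block and each embryo left out in turn. A fit without both mutant 7 and sibling 3, leaving out each mutant in the mutants' spread test, and the share of sibling calls called in mutants without sibling 3 were added after the data were seen. Figures were drawn with matplotlib 3.10.9. Some genes that these rules name are not reported here.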

Additional observations from a re-analysis of the deposited data

Results flagged for a closer look

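The highest or lowest embryo of a group was set against the gap to its nearest neighbour (Dixon's test at 95%) for 103 sets of values, and 26 stood apart, where chance flags about 1 in 20. The genes behind them were partly chosen for their spread, so the number of flags is a description.

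Sibling 3 stood apart on the low side in the list levels of yolk syncytial layer and liver (5.96), endothelium (3.40) and myeloid cells (2.64), in the TPM of zgc:174855 (1553) and in the CPM of pcxb (74.3) and dgat2 (10.5). It stood apart on the high side in the TPM of the ribosomal protein genes rpl26 (5378) and rps2 (4789) and in the CPM of cygb1 (491). Mutant 7 stood apart on the low side in the yolk syncytial layer list level (5.80) and in the CPM of cfh (13.6).

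Mutant 6 stood apart on the high side in the CPM of cdkn1a (176), mdm2 (415), ccng1 (3205) and phlda3 (128), and so did sibling 4 in the same genes, at 35.9, 134, 1201 and 22.6 CPM. These 4 genes were chosen after their values were seen.

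Sibling 7 stood apart on the high side in the CPM of cyp2aa3 (504), zgc:173443 (58.5), zgc:174237 (42.1), si:ch211-251f6.6 (98.0) and zgc:123103 (489), and on the low side in the midbrain list level (3.89). Sibling 2 stood apart on the low side in si:dkey-286j15.1 (22.8 CPM).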

How the results depend on the processing

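Counts of detected genes (8910 to 11836) and of genes without counts (656 to 904) stayed within 1.5 times of 11243 and 662 under every alternative run, and the share of the top 100 genes was 27.8% when taken from summed counts in place of TPM. The median list level of 4.06 was 3.82 with a pseudocount of 0.1, and leaving out 1 sibling gave 4.05 to 4.06. Leaving out 1 of 5 siblings cannot move a mean by more than the SD over the 5, so single list levels were not judged that way. The pseudocount moved 29 of the 39 list levels by more than their SD, and keeping only members with at least 1 TPM in some sibling moved 17. Leaving out 1 sibling gave a BCV of 0.110 (without sibling 3) to 0.155 and 239 (without sibling 3) to 368 spread calls. Other settings gave 305 to 504 spread calls. Of the 25 most variable genes, 12 lost their call when their farthest embryo was left out, 7 of them without sibling 3, 4 without sibling 7 and 1 without sibling 2. For mutants over siblings the 0 calls became 44 with DESeq2, 24 without mutant 6 and 1 without sibling 7, so that leaving out 1 embryo gave 0 to 24. The deviations of same-numbered mutants and siblings from their group means had correlations of −0.31, −0.19 and −0.14 for replicates 3, 4 and 7. Differences between single embryos enter these values, so they cannot show whether the numbers pair the embryos. The fit with the replicate block gave 0 calls. Only replicates 3, 4 and 7 occur in both groups, so this fit compares the groups within these numbers alone. It had little power to call a gene. The RNA of whole embryos, 5 animals and a spread test that misses most differences of 1.5 times set the limits. Genes near 0 counts in any sibling were left out of the main spread test, so genes absent from single embryos were not ranked by it.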
